A study of Mus musculus with 10 samples.

Results

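The genes described here are 35 enzymes and carrier subunits of mitochondrial fuel oxidation, chosen by their symbols from the 43629 genes in the count table: 15 of the TCA cycle, 7 of pyruvate entry and carboxylation, and 13 of branched-chain amino acid breakdown. Their RNA was measured in whole kidneys of male mice of the UM-HET3 stock, a genetically heterogeneous cross of several inbred strains, so that littermates differ in genotype. The control group comprised 6 littermates on the control diet (Purina 5LG6). The rilmenidine group comprised 4 mice that received this diet with 10 ppm of rilmenidine, an I1-imidazoline receptor agonist prescribed for hypertension, for 1 month from 3 months of age. All mice were 4 months old at collection, the labels name no engineered allele, and 1 sex and 1 time point were sampled. The study asked whether the drug shifts gene expression in mouse tissues towards patterns linked to a longer life, and the comparison of rilmenidine with control kidneys is the only one its design allows.

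Pyruvate made in the cytosol crosses the inner mitochondrial membrane through a carrier built of Mpc1 and Mpc2. The pyruvate dehydrogenase complex then oxidises it to acetyl-CoA, which citrate synthase feeds into the TCA cycle, while pyruvate carboxylase turns pyruvate into oxaloacetate, a cycle intermediate and a gluconeogenic precursor. Leucine, isoleucine and valine are transaminated by Bcat enzymes, decarboxylated by a dehydrogenase complex that resembles pyruvate dehydrogenase and shares its Dld subunit, and degraded by separate branches to acetyl-CoA, acetoacetate or propionyl-CoA. The proximal tubule, which makes up most of the kidney cortex, is rich in mitochondria and makes glucose from such precursors.

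Libraries held 863605 to 2559118 assigned reads in control kidneys and 1813465 to 3232063 in rilmenidine kidneys, and every pair of libraries differed by more than sampling noise. The extraction text of the labels speaks of liver, but the libraries carried kidney RNA: the 10 proximal tubule markers summed to 41900 to 68500 CPM (reads scaled to a common library size by RLE), against 9.25 to 36 CPM for 6 liver markers. Libraries also stood apart within groups. Malat1, a long noncoding RNA retained in the nucleus, lay between 1180 and 2100 CPM in control kidneys 1, 3, 4 and 5, at 398 and 284 CPM in control kidneys 2 and 6, and between 306 and 393 CPM in the 4 rilmenidine kidneys. Olfactory and vomeronasal receptor genes, which kidneys are not known to express at such levels, reached at least 10 CPM (of total reads, without RLE) in 5 control and 2 rilmenidine libraries. Both splits are carried through the results below.

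No member differed between groups after correction in the main test. With edgeR's quasi-likelihood test and Benjamini-Hochberg adjustment over the 10055 genes tested, 0 of 34 tested members had an adjusted p under 0.05, beside 0% of all genes. DESeq2 called 1 member, Mpc2, at an adjusted p of 0.0498, beside 60 of all 10055 genes. The likelihood ratio test of edgeR called 0 members, beside 44 of those genes. At an unadjusted p under 0.05 the quasi-likelihood test gave 1 member (Mpc2), or 2.94%, beside 10.6% of all genes (4.43% higher and 6.13% lower with rilmenidine), so that nominal calls were not more frequent among the members than elsewhere. The data nevertheless bounded the changes: the 95% interval of the log2 fold change lay within ±1 for all 34 tested members and within ±0.5 for 23 of them. The remaining member, Mpc1, had 0 to 3 reads per library and was not tested.

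Mpc2 and Pccb were the members whose rilmenidine kidneys all lay above all control kidneys, and their promoters are shown with that of Idh3g, the TCA cycle gene of smallest p. The windows are RefSeq's for GRCm38.p6, from 250 bases before to 50 bases after a transcription start, on the gene's own strand, and capitals mark matches to the elements searched on both strands: GCGCANGCG, the core recognised by NRF1, a regulator of nuclear genes for mitochondrial proteins, and CCGGAAG, a core for ETS factors. They lie at chr1:165461010-165461309 (plus strand) for Mpc2, chr9:101034835-101035134 (minus strand) for Pccb and chrX:73786848-73787147 (minus strand) for Idh3g.
Mpc2: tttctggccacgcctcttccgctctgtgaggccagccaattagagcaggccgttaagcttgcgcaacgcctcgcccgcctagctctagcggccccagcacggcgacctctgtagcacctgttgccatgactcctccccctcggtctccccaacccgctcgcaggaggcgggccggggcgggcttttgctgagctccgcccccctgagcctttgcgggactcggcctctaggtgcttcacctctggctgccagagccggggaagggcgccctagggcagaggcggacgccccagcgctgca
Pccb: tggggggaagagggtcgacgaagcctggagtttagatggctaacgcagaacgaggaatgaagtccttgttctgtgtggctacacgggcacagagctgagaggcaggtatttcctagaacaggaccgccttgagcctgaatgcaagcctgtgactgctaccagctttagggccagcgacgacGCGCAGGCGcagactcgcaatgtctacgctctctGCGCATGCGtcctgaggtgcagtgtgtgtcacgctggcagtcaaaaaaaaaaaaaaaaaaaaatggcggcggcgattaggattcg
Idh3g: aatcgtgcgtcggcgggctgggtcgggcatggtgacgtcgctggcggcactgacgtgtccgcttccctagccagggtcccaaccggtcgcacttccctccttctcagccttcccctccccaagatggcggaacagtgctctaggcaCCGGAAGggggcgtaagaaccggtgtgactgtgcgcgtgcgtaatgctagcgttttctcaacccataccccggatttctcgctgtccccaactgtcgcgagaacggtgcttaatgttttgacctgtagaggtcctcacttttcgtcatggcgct
The Pccb window held the NRF1 element at positions 182 and 216, counted from the window's 5′ end, the Idh3g window held the ETS element at position 147, and the Mpc2 window held neither. RefSeq windows were found for 33 members, 45 windows in all. The NRF1 element stood in 6 of 45 (13.3%), in the genes Dld, Hibadh, Ogdh, Pccb and Sucla2, beside 6.25% of all 32851 windows. Ogdh entered this count with overlapping windows, starting at chr11:6292308 and chr11:6292329, that hold the same site. The ETS element stood in 4 of 45 (8.89%) beside 8.86% of all windows. TNAAGGTCA, the letters of an element for estrogen-related receptors, stood in 0 of 45 beside 1.28% of all. A match describes the letters of the window and not a bound site. The quasi-likelihood test called no member to which a match could be related, and the window of Mpc2, which DESeq2 called, held none.

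Mpc2 showed the largest difference among the members, with values higher by 39.7% in rilmenidine kidneys. Mpc2 (ENSMUSG00000026568, chr1:165460637-165481214 on GRCm38, plus strand) was at 279 CPM in the lowest control kidney, 398 at the median and 439 in the highest. In rilmenidine kidneys 1 to 4 it was at 546, 507, 608 and 513 CPM. All 4 rilmenidine values thus lay above the 6 control values, and 1 control kidney, the fifth, lay well below the others. The means were 389 ± 56.9 CPM (SD, n = 6) and 543 ± 46.1 CPM (SD, n = 4), and the log2 fold change was 0.48 ± 0.13 (SE), a fold of 1.40 with a 95% interval of 1.15 to 1.70. The edgeR quasi-likelihood test gave an unadjusted p of 0.00215 and an adjusted p of 0.232, above the threshold. Groups that do not overlap, with rilmenidine higher, were seen in 2 of 34 members (5.88%) beside 0.796% of all genes, and in the opposite direction in 0 members beside 0.875%. The size of the Mpc2 difference moved with Malat1: with the 4 high-Malat1 control kidneys left out, its log2 fold change was 0.33 (edgeR unadjusted p = 0.0604, adjusted p = 0.999), and with log2 Malat1 as a covariate it was 0.28. Over all alternatives its adjusted p ran from 0.0498, with DESeq2, to 1, with that covariate. The part of Malat1 in the difference was not tested.

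Mpc1, the partner of Mpc2 in the carrier, could not be compared. Its reads numbered 1, 3, 0, 1, 1 and 0 in control kidneys 1 to 6 and 2, 1, 2 and 0 in rilmenidine kidneys 1 to 4, under the 6 reads that the filter asked of most libraries. The libraries tag the 3′ ends of transcripts, and Mpc1 shares 480 exonic bases with 4930506C21Rik on the other strand (17 reads over all libraries), while its processed pseudogene Mpc1-ps had 7 reads. Whether Mpc1 RNA was scarce or was not counted cannot be told apart from these values.

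The pyruvate dehydrogenase subunits differed by less than their spread. Pdhb, which forms the decarboxylating component together with Pdha1, was at 301 CPM in the lowest control kidney, 373 at the median and 449 in the highest, and at 430, 409, 427 and 409 CPM in rilmenidine kidneys 1 to 4. Pdha1, the subunit whose phosphorylation switches the complex off, was at 299, 330.5 and 364 CPM in the lowest, median and highest control kidney and at 327, 347, 398 and 353 CPM with rilmenidine. For both genes the groups overlapped, and the 4 rilmenidine values of Pdhb lay close together inside the range of the controls. The log2 fold changes were 0.16 ± 0.12 for Pdhb and 0.09 ± 0.11 for Pdha1 (SE), with edgeR adjusted p of 0.688 and 0.833. They were 0.11 for Pdhb without control kidney 5 and 0.03 for Pdha1 without rilmenidine kidney 3. Dlat, the acetyltransferase core, and Pdhx, the protein that anchors Dld to it, had log2 fold changes of -0.02 ± 0.13 and 0.10 ± 0.14. Pcx, pyruvate carboxylase, was at 178, 257, 219 and 270 CPM in rilmenidine kidneys and between 182 and 284 CPM in control kidneys, with a log2 fold change of 0.08 ± 0.16 (adjusted p = 0.917, edgeR). Over the 6 tested genes of pyruvate metabolism the median log2 fold change was 0.09, and 5 of 6 were above 0.

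**Figure D1:**
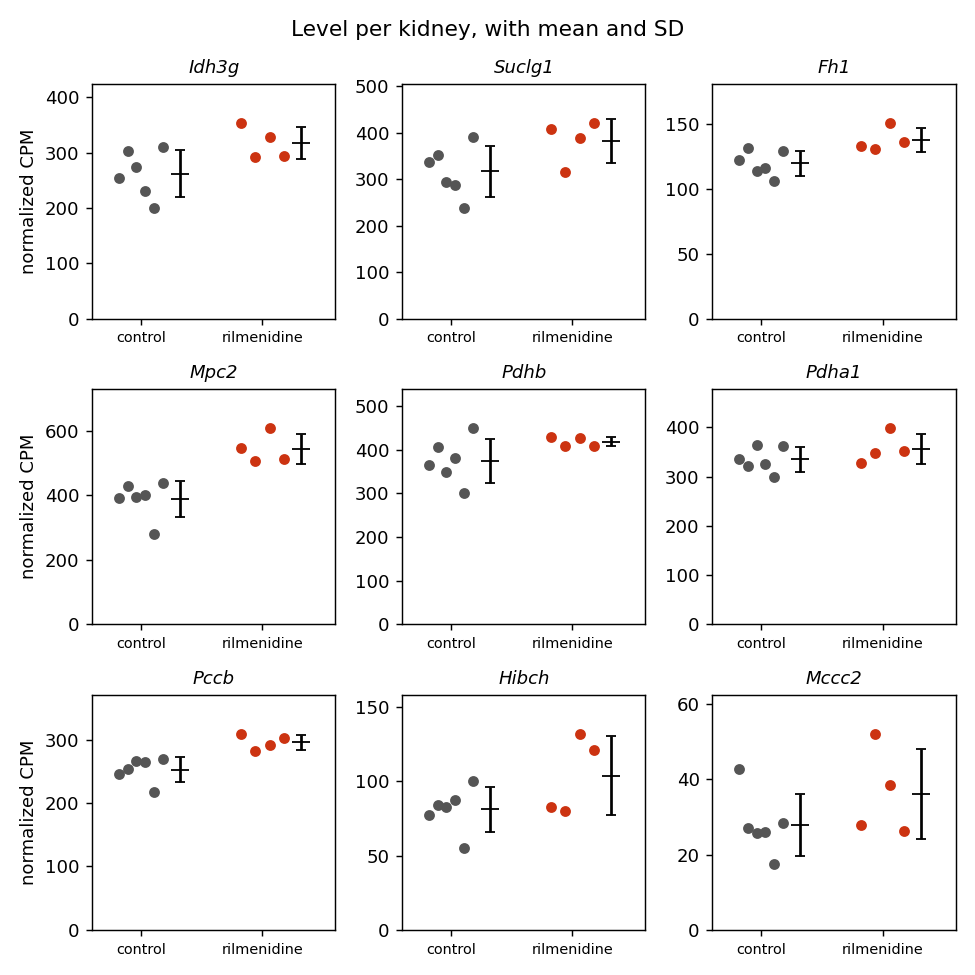
Normalised CPM (vertical axis, from 0) of the 9 members given kidney by kidney, 3 for each pathway group; each point is 1 kidney, in replicate order from left to right, and the bars beside the points are the group mean and SD. The 4 rilmenidine kidneys lie above all 6 control kidneys for Mpc2 (507 to 608 CPM against 279 to 439) and Pccb (282 to 309 against 217 to 270), and overlap them for the other genes.

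Genes of the TCA cycle had small positive differences, with 13 of 15 log2 fold changes above 0, a median of 0.15 and a range of -0.11 to 0.27. None passed an unadjusted p under 0.05. The smallest p belonged to Idh3g, the regulatory subunit of the NAD-dependent isocitrate dehydrogenase (chrX:73778963-73786897, minus strand). It was at 200, 264 and 310 CPM in the lowest, median and highest control kidney and at 354, 293, 328 and 294 CPM with rilmenidine, a log2 fold change of 0.27 ± 0.14 (edgeR unadjusted p = 0.0594, adjusted p = 0.495). Rilmenidine kidneys 1 and 3 lay above all controls, and rilmenidine kidneys 2 and 4 lay within their range. The partner subunits Idh3a, which carries the active site, and Idh3b had log2 fold changes of 0.18 ± 0.15 and 0.14 ± 0.15.

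Suclg1, the alpha subunit shared by both forms of succinyl-CoA ligase (chr6:73248382-73276911, plus strand), was at 239, 315 and 391 CPM in the lowest, median and highest control kidney. With rilmenidine it was at 407, 315, 388 and 421 CPM. The upper control values reached the rilmenidine range, and the log2 fold change of 0.27 ± 0.14 had an edgeR adjusted p of 0.522. The beta subunits Sucla2 and Suclg2, which give the ligase its preference for ADP or GDP, had log2 fold changes of 0.22 ± 0.15 and 0.03 ± 0.16. Fh1, the fumarase that hydrates fumarate to malate (chr1:175600374-175625635, minus strand), was at 106, 119 and 132 CPM in the lowest, median and highest control kidney and at 133, 131, 151 and 136 CPM with rilmenidine. Only rilmenidine kidney 2 fell inside the control range, and the log2 fold change was 0.20 ± 0.11 (adjusted p = 0.559, edgeR).

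At the entry of the cycle, Cs, citrate synthase, was among the steadiest of the members. It was between 235 and 278 CPM in control kidneys and at 252, 234, 260 and 287 CPM with rilmenidine, a log2 fold change of -0.02 ± 0.11 with a 95% interval of -0.25 to 0.21, and its coefficient of variation among controls, 5.80%, was the lowest of the 34 members. The oxoglutarate dehydrogenase complex did not move as a block in sign: Ogdh, its decarboxylase, had a log2 fold change of -0.11 ± 0.12, Dlst, its succinyltransferase, 0.02 ± 0.16, and Dld, the dehydrogenase common to several such complexes, 0.15 ± 0.13. The NADP-dependent isocitrate dehydrogenases Idh1 (cytosolic) and Idh2 (mitochondrial) were at 0.15 ± 0.13 and 0.10 ± 0.13. The malate dehydrogenases Mdh1 (cytosolic) and Mdh2 (mitochondrial) were at 0.24 ± 0.17 and 0.10 ± 0.13. Adjusted p over the 15 genes ran from 0.495 to 0.982.

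Branched-chain catabolism held both the second separated gene and the lowest fold change of the members. Its 13 genes had a median log2 fold change of 0.17, with 11 above 0 and a range of -0.28 to 0.40. Pccb, the beta subunit of propionyl-CoA carboxylase (ENSMUSG00000032527, chr9:100982032-101034898, minus strand), was at 217, 259 and 270 CPM in the lowest, median and highest control kidney and at 309, 282, 291 and 302 CPM with rilmenidine. The groups did not overlap, though the gap between the nearest kidneys, 270 and 282 CPM, was small. The log2 fold change was 0.23 ± 0.11 (SE), 17.2% higher, with an edgeR unadjusted p of 0.0516 and an adjusted p of 0.477. Without the high-Malat1 controls it was 0.18. Pcca, the biotin-carrying alpha subunit of the same enzyme, had a log2 fold change of 0.18 ± 0.13.

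Hibch, which releases hydroxyisobutyrate from its CoA ester in valine breakdown (chr1:52844929-52920986, plus strand), was at 54.9, 83.4 and 100.2 CPM in the lowest, median and highest control kidney. With rilmenidine it was at 82.9, 79.8, 132 and 121 CPM, so that kidneys 3 and 4 lay above the controls and kidneys 1 and 2 in their middle. Its log2 fold change of 0.36 ± 0.18 had an edgeR adjusted p of 0.494, and was 0.23 without rilmenidine kidney 3. Mccc2, the beta subunit of the methylcrotonyl-CoA carboxylase of leucine breakdown (chr13:99948530-100015639, minus strand), had the second highest fold change and rested on 30 to 110 reads a library. It was at 17.4, 26.5 and 42.7 CPM in the lowest, median and highest control kidney and at 27.8, 52.1, 38.5 and 26.2 CPM with rilmenidine, where 1 kidney exceeded every control. The log2 fold change was 0.40 ± 0.23 (adjusted p = 0.578, edgeR), and 0.18 without rilmenidine kidney 2. The partner subunit Mccc1 was at 0.18 ± 0.14.

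Dbt, the acyltransferase core of the branched-chain dehydrogenase complex (chr3:116513070-116549981, plus strand), is named for its fold change, the lowest of the members. It was at 262, 132, 243, 233, 211 and 172 CPM in control kidneys 1 to 6 and at 157, 154, 175 and 199 CPM with rilmenidine, a log2 fold change of -0.28 ± 0.17 (adjusted p = 0.589, edgeR). The 4 control kidneys with high Malat1 had the 4 highest values of the 10 kidneys, and the other 2 controls lay below or among the rilmenidine kidneys. Without those 4 kidneys the log2 fold change was 0.17, of the opposite sign. The other subunits of the complex, Bckdha and Bckdhb, were at 0.17 ± 0.14 and 0.10 ± 0.13, and Bckdk, the kinase that inactivates it, at 0.21 ± 0.21 on 18 to 70 reads a library. Bcat2, the mitochondrial transaminase that starts the pathway, had 11 to 51 reads a library and a log2 fold change of -0.09 ± 0.29, the widest error of the members. Ivd (leucine), Hibadh and Aldh6a1 (valine) were at 0.11 ± 0.13, 0.14 ± 0.13 and 0.01 ± 0.13.

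**Figure D2:**
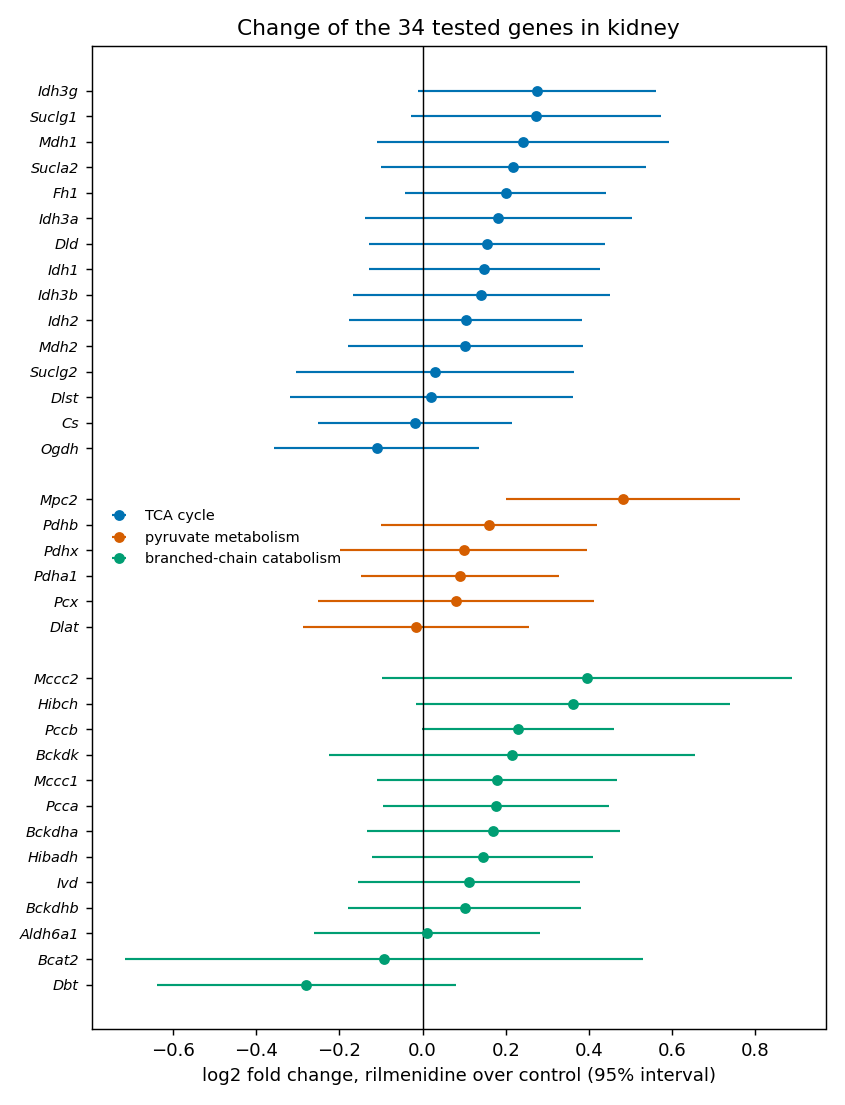
Log2 fold change, rilmenidine over control, of the 34 tested members (points) with 95% intervals (bars), grouped by pathway. The interval of Mpc2 (0.20 to 0.76) is the only one that leaves out 0, and 29 of the 34 points lie above 0.

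Across the 3 groups, 29 of 34 log2 fold changes were above 0 (85.3%), beside 50.3% of all genes and 52.1% of the 6233 genes at least as abundant as the least abundant tested member. The median was 0.15, beside 0.002 over all genes. The changes were small, 31 of 34 under 0.3 in size on the log2 scale and 15 under their own SE, and members vary together from kidney to kidney, so the count of signs is a description and not a test. The mean log2 CPM of the 15 TCA cycle genes was 7.94, 7.87, 7.83, 7.82, 7.63 and 8.05 in control kidneys 1 to 6 and 8.03, 7.88, 8.06 and 8.01 in rilmenidine kidneys 1 to 4. Control kidney 5 was lowest for all 3 pathway groups and was the lowest of the 10 kidneys for 18 of 34 members, whereas control kidney 6 was the highest control for 16. In the means of the 3 pathway groups, rilmenidine kidneys 1, 3 and 4 lay in the upper part of the range of the controls or just above it. Rilmenidine kidney 2 lay nearer the control medians. It was at 7.88 for the TCA cycle (control median 7.85), 7.96 for pyruvate metabolism (7.86) and 7.03 for branched-chain catabolism (7.04). In pyruvate metabolism rilmenidine kidney 1 lay almost as near, at 7.98. In whole tissue, fewer cells of a type and less of an RNA per cell cannot be told apart.

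**Figure D3:**
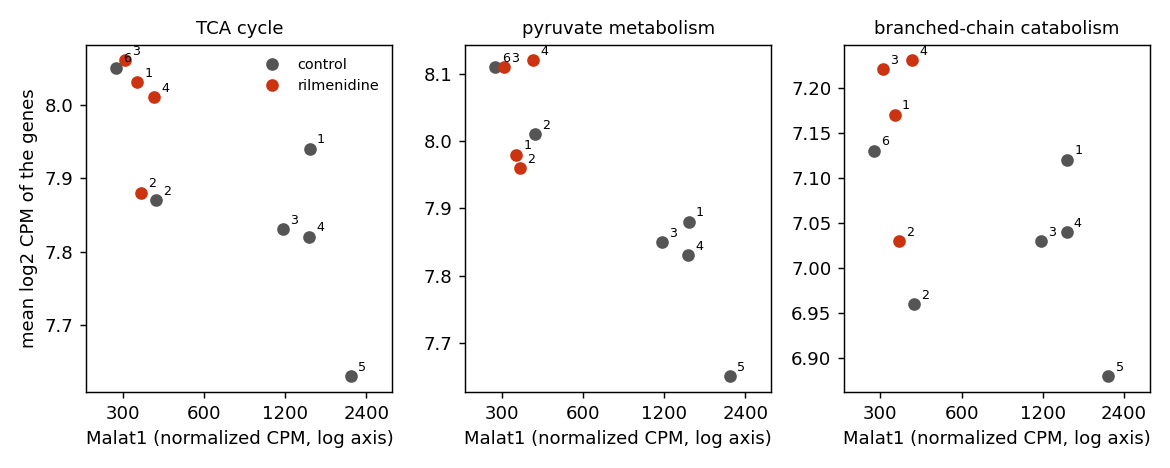
Mean log2 CPM of the tested genes of each pathway group (vertical axes, which do not start at 0) against Malat1 in RLE-normalised CPM (log axis) in the 10 kidneys, numbered by replicate. Control kidney 5 has the highest Malat1 (2100 CPM) and the lowest mean in each panel, and control kidneys 2 and 6 lie at the Malat1 level of the rilmenidine kidneys.

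The excess of positive signs moved with Malat1. Malat1 itself was lower with rilmenidine, with a log2 fold change of -1.73 ± 0.42 (SE, edgeR unadjusted p = 0.000747, adjusted p = 0.211). All 4 rilmenidine kidneys were low, so a setting that uses Malat1 can also take away part of a group difference. With control kidneys 1, 3, 4 and 5 left out, 2 control and 4 rilmenidine kidneys remained, and 19 of 34 members had a log2 fold change above 0, beside 52.1% of all genes in that fit. The TCA cycle then had 7 of 15 above 0, pyruvate metabolism 2 of 6 and branched-chain catabolism 10 of 13. In that fit 0 members had an unadjusted p under 0.05 by edgeR, beside 3.22% of all genes. With log2 Malat1 as a covariate on all 10 kidneys the count above 0 was also 19 of 34, beside 51.7% of all genes. Library size moved with the groups too, and as a covariate it left 23 of 34 above 0, beside 52.1% of all genes. In the 7 libraries with at least 10 CPM of receptor genes the count was 28, beside 51.3%. Of the 34 members, 16 were higher with rilmenidine in all 21 alternative fits, among them Mpc2, Pccb, Pcca, Idh3g, Suclg1, Fh1 and Hibch, and Ogdh was lower in all of them. A kept sign was not a kept size: without the high-Malat1 controls the log2 fold change was 0.05 for Idh3g, 0.04 for Suclg1, 0.08 for Fh1, 0.11 for Pcca and 0.18 for Hibch. With log2 Malat1 as covariate it was 0.02, 0.04, 0.07, 0.09 and 0.14 for the same genes.

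**Figure D4:**
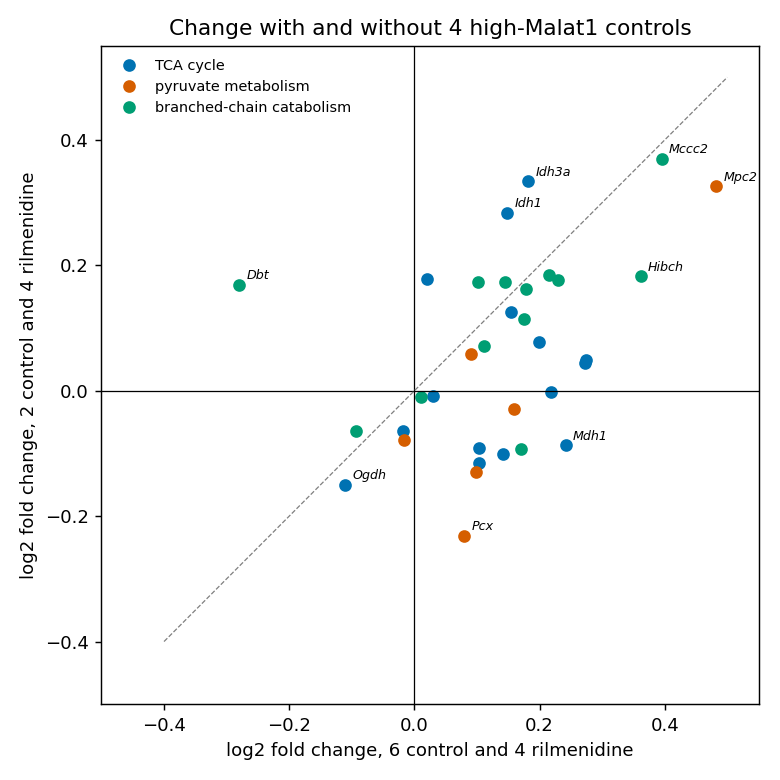
Log2 fold change of each tested member with all 6 control kidneys (horizontal axis) against that with the 2 control kidneys of low Malat1 (vertical axis), coloured by pathway group, with equality as a dashed line. Of the 29 members right of 0, 11 lie below 0 on the vertical axis, while Mpc2 (0.48 and 0.33) and Mccc2 (0.40 and 0.37) stay above it and Dbt crosses from -0.28 to 0.17.

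Cell type markers moved beside these values. The summed proximal tubule markers ranged from 41900 to 55700 CPM in control and 45700 to 68500 CPM in rilmenidine kidneys, with 0 of 10 at an unadjusted p under 0.05 by edgeR. Most of that sum was Kap, an androgen-responsive gene, at 31400 to 46300 and 36600 to 59600 CPM. The other 9 summed to 9270 to 10700 and 8920 to 10600 CPM, and 5 of the 10 had a log2 fold change above 0. Thick ascending limb markers, from another segment dense in mitochondria, ranged from 1500 to 2200 and 1800 to 2870 CPM. Most of this was Umod, at 909 to 1451 and 1178 to 1986 CPM. Of 4 tested markers, 2 (Umod and Egf) were higher at an unadjusted p under 0.05 by edgeR, beside 4.43% of all genes. The other 2, Slc12a1 and Kcnj1, had log2 fold changes of 0.08 ± 0.24 and 0.07 ± 0.13. Distal convoluted tubule markers ranged from 755 to 1250 and 592 to 988 CPM, with 2 of 4 lower at that p, beside 6.13% of all genes. Principal cell markers ranged from 199 to 302 and 257 to 310 CPM, with 2 of 5 higher, beside 4.43% of all genes. Of the other lists, 0 intercalated cell, podocyte, endothelial, immune, blood or fat and adrenal markers reached that p, and 1 of 2 tested liver markers was higher. No listed marker was at 0 in all libraries. Transcripts encoded by the mitochondrial genome took 7.09 to 15.2% of reads in control and 9.54 to 13.7% in rilmenidine kidneys. The part of these shifts in the members' values was not tested.

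Ratios of paired enzymes within a kidney gave no difference past the threshold. The scaling of libraries cancels in them except through the prior count of 2 added to the reads, which weighs most at few reads. The log2 ratio of Mdh1 to Mdh2 averaged 1.64 ± 0.19 in control and 1.78 ± 0.20 in rilmenidine kidneys (SD, n = 6 and n = 4), a difference of 0.14 (two-sided exact permutation test over the 210 splits, p = 0.314). That of Sucla2 to Suclg2 differed by 0.18 (exact permutation p = 0.362) and that of Idh3b to Idh3g by -0.13 (exact permutation p = 0.352). Pcx to Pdha1, the ratio of carboxylation to oxidation enzymes, averaged -0.63 ± 0.26 and -0.64 ± 0.27. Idh1 to Idh2, Bckdk to Bckdha and Pdha1 to Bckdha differed by 0.04, 0.03 and -0.09. Over the 7 ratios adjusted p ran from 0.844 to 0.99, and the smallest p the design allows is 0.00952. How fully the 3′ ends of each gene were counted is not known, so the ratios are compared between groups and not read as stoichiometry.

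Most other genes of the same pathways also had positive log2 fold changes. Of 49 listed, 47 were tested, with 37 log2 fold changes above 0 (78.7% beside 50.3% of all genes), 0 adjusted p under 0.05 and 6 unadjusted p under 0.05 (12.8% beside 10.6% of all genes), all 6 higher with rilmenidine. DESeq2 called 1 of the 47, Bcat1, beside 60 of all 10055 genes. As for the members, the count above 0 moved with Malat1: it was 28 of 47 with log2 Malat1 as covariate, beside 51.7% of all genes, and 30 of 48 without the high-Malat1 controls, beside 52.1%. Sdhb, the iron-sulfur subunit of succinate dehydrogenase, was at 333, 405.5 and 579 CPM in the lowest, median and highest control kidney and at 627, 483, 631 and 594 CPM with rilmenidine. Its log2 fold change was 0.42 ± 0.16 (edgeR adjusted p = 0.368) and 0.06 without the high-Malat1 controls. Sdhc, which anchors the same enzyme in the membrane, was at 0.26 ± 0.12. Hsd17b10 of isoleucine breakdown, Echs1, the enoyl-CoA hydratase shared with fatty acid oxidation, and Mmab, which makes the cobalamin cofactor of the propionate pathway, were at 0.39 ± 0.15, 0.31 ± 0.14 and 0.39 ± 0.19. Without the high-Malat1 controls Sdhc was at 0.10, Hsd17b10 at 0.13, Echs1 at 0.03 and Mmab at 0.14, and without rilmenidine kidney 3 Mmab was at 0.26. None of the 7 regulators of pyruvate dehydrogenase had an unadjusted p under 0.05 by edgeR. The kinases that inactivate it had log2 fold changes of 0.11 ± 0.22 (Pdk1), 0.11 ± 0.18 (Pdk2), 0.22 ± 0.16 (Pdk3) and 0.19 ± 0.35 (Pdk4). The phosphatases that reactivate it were at 0.09 ± 0.39 (Pdp1) and -0.16 ± 0.13 (Pdp2), and a phosphatase regulatory subunit, Pdpr, was at 0.68 ± 0.38. Reads a library numbered only 5 to 28 for Pdk4, 5 to 15 for Pdp1 and 2 to 21 for Pdpr. Ppm1k, the phosphatase that activates the branched-chain complex, was at -0.17 ± 0.19.

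Bcat1, the cytosolic branched-chain transaminase, had the largest difference of all these genes and few reads. Its reads numbered 9, 9, 13, 6, 7 and 4 in control kidneys 1 to 6 and 9, 35, 117 and 47 in rilmenidine kidneys 1 to 4. Rilmenidine kidney 1 lay within the controls, and kidneys 2 to 4 lay above them. In CPM the means were 6.06 ± 3.63 (SD, n = 6) and 19.96 ± 15.1 (SD, n = 4), and the log2 fold change was 1.90 ± 0.49 (SE) with an edgeR unadjusted p of 0.00137 and an adjusted p of 0.229. Over the alternatives the adjusted p ran from 3.52e-07, with every gene of at least 1 read kept, to 1, and DESeq2 gave 0.0471. Without rilmenidine kidney 3 the log2 fold change was 1.23, and in the 7 libraries with at least 10 CPM of receptor genes it was 0.87. It was 2.67 without the high-Malat1 controls.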

How the data were processed

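RNA was sequenced from 10 kidneys, 6 control and 4 rilmenidine, by a protocol that tags transcript 3′ ends. The authors deposited raw counts per Ensembl gene. The submitters' processing notes name bcl2fastq 1.8.4, Trimmomatic 0.32, STAR 2.5.2b, featureCounts 1.5 and the mm10 build. Strand setting and treatment of molecular identifiers are not given in the sources used here. Reads of 9 members could therefore mix with those of an opposite-strand gene that shares 5 to 1171 exonic bases, whose own reads numbered 0 to 360 over all libraries. The study's methods name more control mice than the libraries analysed here.

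Groups and replicate numbers came from the labels. Of 43629 gene IDs, 42548 were found in GENCODE M21 (GRCm38), which gave symbols and coordinates. The 10055 genes that reached 6 reads in 66.6% or more of the libraries were normalised by RLE and tested with edgeR 4.0.16 (quasi-likelihood, Benjamini-Hochberg over all of them). CPM are RLE-normalised and fold changes are rilmenidine over control. Intervals are 95%. The common biological coefficient of variation was 0.221, and tested members had 11 to 4678 reads a library, which limits the genes of few reads most. Ratios used exact permutation tests over kidneys (scipy 1.17.1), on log2 CPM with a prior count of 2. The code was tested on simulated data. Alternatives covered normalisation, filters, DESeq2 1.42.0, the likelihood ratio test, covariates (library size, Malat1 and receptor reads, the last 2 as CPM of total reads without RLE), the replicate number as a block, and left-out libraries. Between kidneys of the same replicate number, correlations of deviations from the group mean ran from -0.0768 to 0.0775. Such values do not settle whether these kidneys shared a litter or a batch.

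Members, pathway lists, markers and motifs were chosen with earlier results of these data known. Kidney-by-kidney values are given for members with an unadjusted p under 0.05 and, where a group has fewer than 3, for those of smallest p up to 3; other members are given by log2 fold change, and other pathway genes are named at an unadjusted p under 0.05. Dbt, Cs, Pcx, Mpc1, the Pdk and Pdp genes, Pdpr and Ppm1k were singled out after their values were seen.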

Additional observations from a re-analysis of the deposited data

Results flagged for a closer look

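Single kidneys stood far from the rest of their group for 5 of 94 sets of values tested with Dixon's criterion, where chance gives about 4.7. Mpc2 was at 279 CPM in control kidney 5 and at 392 to 439 CPM in the other controls. Dlst was at 73 CPM in control kidney 1 and at 44.8 to 51.5 CPM in the other controls. Idh3b was at 235 CPM in rilmenidine kidney 4 and at 186 to 194 CPM in the others, while Suclg2 was at 40.6 CPM in that kidney and at 54.3 to 55.3 CPM in the others. Echs1 was at 199 CPM in rilmenidine kidney 2 and at 238 to 244 CPM in the others. Without control kidney 5 the log2 fold change of Mpc2 was 0.41 in place of 0.48.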

How the results depend on the processing

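The count of members with an adjusted p under 0.05 stayed at 0 except with DESeq2 (1, Mpc2, beside 60 of 10055 genes). At an unadjusted p under 0.05 the main count was 1, beside 10.6% of all genes. It became 2 with TMM (10.7% of all genes), with either other filter (7.38% and 12.8%) and with library size as covariate (4.3%). It was also 2 with DESeq2 (9.8%). It was 0 with log2 Malat1 as covariate (3.09% of all genes) or without the high-Malat1 controls (3.22%). With 1 library left out it was 1 to 5 (7.29% to 14.4% of all genes), and 5 without control kidney 6 (14.4%). Mpc2 was below that p in every fit with 1 library left out. Log2 fold changes above 0 numbered 19 in both Malat1 settings and 26 to 32 with 1 library left out. Other pathway genes at that p, 6 in the main fit, numbered 3 with the likelihood ratio test (9.87% of all genes) or a receptor term (7.35%). They numbered 1 with library size, with Malat1 or without the high-Malat1 controls, where the shares of all genes are those above. With 1 library left out they numbered 2 (without rilmenidine kidney 3, 7.64% of all genes) to 8 (without control kidney 2, 13.5%, or control kidney 6, 14.4%). Bcat1 passed the adjusted threshold with DESeq2 (1.81) and with every gene of at least 1 read kept (1.89), and has no value where 10 reads were required in every library. Over all genes the count at an adjusted p under 0.05, 0 in the main fit, was 241 of 27565 with that widest filter. Of 10055 genes it was 60 with DESeq2, 44 with the likelihood ratio test and 3 with the replicate number as a block. It was 33 of 10164 without control kidney 2, 37 of 10135 without control kidney 6 and 6 of 10182 without rilmenidine kidney 1. The cause of these changes was not tested.

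The TCA cycle median was -0.0224 with log2 Malat1 as covariate and -0.00272 without the high-Malat1 controls, and the pyruvate median -0.0636 and -0.0541. In the same order, log2 fold changes that changed sign were -0.0822 and -0.0916 for Idh2, -0.0837 and -0.101 for Idh3b, -0.0224 and -0.00272 for Sucla2, -0.0699 and -0.0091 for Suclg2, -0.102 and -0.0869 for Mdh1, -0.124 and -0.116 for Mdh2, -0.0407 and -0.0298 for Pdhb, -0.103 and -0.13 for Pdhx, -0.183 and -0.231 for Pcx, -0.0758 and -0.0921 for Bckdha, 0.0972 and 0.169 for Dbt, and -0.0198 and -0.0107 for Aldh6a1. Without the high-Malat1 controls the ratios Sucla2/Suclg2 (-0.0498) and Pdha1/Bckdha (0.158) also changed sign. With library size as covariate Idh3b (-0.00545), Mdh2 (-0.0286), Pdhx (-0.0186), Pcx (-0.158), Ivd (-0.0172) and Aldh6a1 (-0.0814) did so. In the libraries with at least 10 CPM of receptor genes alone, Dlst was -0.199, Bcat2 0.173, Aldh6a1 -0.0894 and Pcx/Pdha1 0.0359. With a term for that split Dlst was -0.00676, Pcx -0.0144 and Aldh6a1 -0.0615. With the replicate number as a block, which left the counts at 1 and 29, Cs was 0.0199, Dlst -0.037, Bcat2 0.165, Aldh6a1 -0.00192 and Pcx/Pdha1 0.053. With 1 library left out, ranges that crossed 0 were -0.0727 to 0.0269 for Cs, -0.0893 to 0.124 for Dlst, -0.0283 to 0.133 for Suclg2, -0.0895 to 0.0991 for Dlat, -0.00408 to 0.184 for Pcx, -0.393 to 0.0873 for Bcat2, -0.0817 to 0.0781 for Aldh6a1, -0.0866 to 0.0987 for Idh1/Idh2, -0.0886 to 0.0746 for Pcx/Pdha1 and -0.0976 to 0.128 for Bckdk/Bckdha. No ratio passed in any setting, but left-out or paired sets are too small to pass in part: the smallest p is 0.133 for 2 against 4 kidneys, 0.0952 for 5 against 2 and 0.125 for 4 pairs.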
